A study of Mus musculus with 11 samples.

Results

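The genes described here encode the conjugating enzymes, ligase subunits and deubiquitinases of the ubiquitin system in mouse ventricle. They were chosen by symbol, as all genes of the array whose single platform symbol starts with Ube2, Usp and a digit, Otu, Uch, Fbxo, Fbxl, Fbxw, Trim and a digit, Rnf, or Cul and a digit. The rule took 181 of 8106 named genes tested, and all 181 passed the filter of a value on at least 9 of 11 arrays. They comprised 23 Ube2 genes, 31 F-box genes, 27 Trim genes, 48 Rnf genes, 6 cullins and 46 genes of the Usp, Otu and Uch families. A symbol is no proof of function: Usp6nl, which the rule takes, encodes a Rab GTPase-activating protein.

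Ventricular RNA of 12 male TG1306/1R mice on a C57/BL6 background, about 60 weeks old, was compared on 11 cDNA arrays with 2 dyes. The 4 Dil mice were heterozygous carriers of a transgene that overexpresses angiotensinogen in the heart, and had dilated hearts. The 4 Hyp mice were heterozygous carriers of the same transgene with concentric hypertrophy, and the 4 WT mice were littermates without it. Each array compared 2 mice of the same set number, with direct arrays for Dil with WT in sets 1, 3 and 4 and for the other pairs in sets 1 to 4. The array of Dil and WT in set 2 was not analysed here. Carriers were assigned to Dil or Hyp by chamber morphology, cardiac weight index and hypertrophic markers, so that the groups are the heart's own outcome in 1 genotype and not a treatment. The index ran from 7.8 to 9.2 mg/g in Dil, from 5.3 to 5.8 mg/g in Hyp and from 4.2 to 4.9 mg/g in WT. The labels give mouse Hyp3 a different index on each of its 2 arrays, both within the Hyp range. It was taken as 1 mouse by its name. The tissue was both ventricles with the septum, where fewer cells of a type and less RNA per cell cannot be told apart.

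Ubiquitin is activated by an E1 enzyme, passed to an E2 conjugating enzyme of the Ube2 family and attached to a target with the help of an E3 ligase. Trim and Rnf proteins are mostly single-chain RING ligases, while a cullin is the scaffold of a multi-subunit ligase to which an F-box or other adaptor brings the target. Deubiquitinases of the Usp, Otu and Uch families trim or remove the chains. In heart muscle the system clears damaged and sarcomeric proteins, and several of its ligases are known from muscle wasting and growth.

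The files hold ratios between mice, so that no level of a gene in a group and no order of levels between genes can be given. Ratios were taken as Cy5 over Cy3 on a log2 scale, neither of which the sources used here state. The direction is only likely, and rests on Nppb, a natriuretic peptide gene of the stressed ventricle, and Agt, the transgene's product. Nppb had a fitted log2 change of 2.53 ± 0.32 in Dil against WT (SE, limma adjusted p = 0.00866) and 1.02 ± 0.30 in Hyp against WT (0.900, not called). Agt had 2.15 ± 0.40 in Dil against WT (limma adjusted p = 0.0311) and 2.09 ± 0.40 in Hyp against WT (0.871, not called). With the other direction every sign below would turn. Changes were fitted from all arrays with limma, with a term for the dye and mice as random effects, and a gene was called at a Benjamini-Hochberg adjusted p under 0.05 over all 12097 features.

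Few of the 181 genes differed between groups. In Dil against WT, limma with Benjamini-Hochberg adjustment called 3 of 181 genes (1.66%), against 2.15% of all features. All 3 were higher in Dil, a direction that 1.0% of all features were called in. They were Otulin, the protease for linear ubiquitin chains, Usp28, a deubiquitinase known for stabilising Myc, and Trim44, a Trim protein without a RING domain. In Dil against Hyp, 2 of 181 (1.1%) were called, against 0.165% of all features, and both, Otulin and Usp28, were higher in Dil, where 0.141% of all features were called. In Hyp against WT, limma called 0 of 181 genes, as it called 0.0% of all features.

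The shares at an unadjusted p under 0.05 lay near or below those of all features. They were 30 of 181 (16.6%) in Dil against WT beside 16.2% of all features, with 17 higher and 13 lower. They were 13 of 181 (7.18%) in Dil against Hyp beside 9.64%, with 10 higher and 3 lower. They were 3 of 181 (1.66%) in Hyp against WT beside 4.41%, and the 16 other settings of the fit also called 0 genes there. With counts this small, the results below are about single genes and not about the genes as a group.

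The genes did not shift together in any comparison. Their median log2 change was 0.0037 in Dil against WT, with 92 of 181 above 0, beside a median of 0.0029 over all features. It was -0.00025 in Dil against Hyp beside -0.0037, and -0.0024 in Hyp against WT beside 0.00075. The SD over the genes was 0.17 in Dil against WT beside 0.20 over all features, 0.13 in Dil against Hyp beside 0.15, and 0.09 in Hyp against WT beside 0.12. The 95% interval of the change lay wholly within 0.5 of 0 on the log2 scale for 160 of 181 genes (88.4%) in Dil against WT beside 82.9% of all features. It did so for 167 (92.3%) beside 89.2% in Dil against Hyp, and for 174 (96.1%) beside 91.0% in Hyp against WT.

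**Figure D1:**
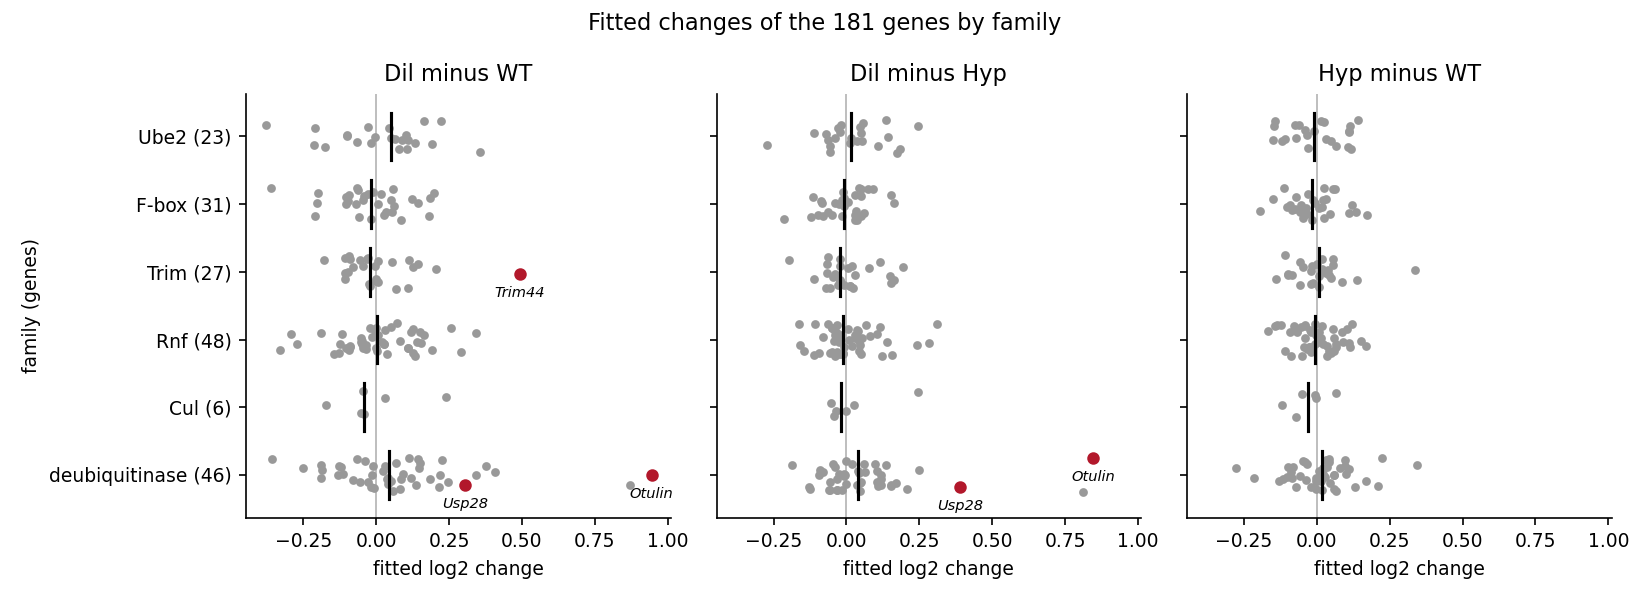
Fitted log2 changes of the 181 genes by family in Dil minus WT, Dil minus Hyp and Hyp minus WT. Each point is 1 gene, placed with random vertical scatter, black bars are family medians, and red points are genes with an adjusted p under 0.05. All family medians lie close to 0, and Otulin, Usp28 and Trim44 stand to the right of theirs.

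Sequence before the start site is shown for the 3 called genes, as the data bear on their transcripts. It was taken from RefSeq (GRCm38.p6) and covers the 250 bases before each gene's start, with every GGGCGG or its complement CCGCCC in capitals, a motif known as the GC box. Otulin lies on chromosome 15 (chr15:27630694-27630943, minus strand), Usp28 on chromosome 9 (chr9:48985135-48985384, plus strand) and Trim44 on chromosome 2 (chr2:102400901-102401150, minus strand).
Otulin: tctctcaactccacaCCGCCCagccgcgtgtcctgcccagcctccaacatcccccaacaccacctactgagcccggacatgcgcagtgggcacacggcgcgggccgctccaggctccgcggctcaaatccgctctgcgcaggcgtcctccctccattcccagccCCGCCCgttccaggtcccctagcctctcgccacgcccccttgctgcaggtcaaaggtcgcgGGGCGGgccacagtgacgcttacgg
Usp28: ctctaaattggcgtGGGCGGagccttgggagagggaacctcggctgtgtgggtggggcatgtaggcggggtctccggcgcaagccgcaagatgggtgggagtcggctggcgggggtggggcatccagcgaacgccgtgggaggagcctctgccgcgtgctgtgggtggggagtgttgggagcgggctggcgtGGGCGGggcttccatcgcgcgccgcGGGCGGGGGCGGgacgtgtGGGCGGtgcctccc
Trim44: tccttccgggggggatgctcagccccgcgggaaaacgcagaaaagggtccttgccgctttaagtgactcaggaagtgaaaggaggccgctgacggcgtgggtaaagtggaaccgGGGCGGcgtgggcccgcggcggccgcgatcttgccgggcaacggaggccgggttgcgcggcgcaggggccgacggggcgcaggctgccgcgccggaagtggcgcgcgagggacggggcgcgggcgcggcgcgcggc
The motif was found 3 times before Otulin, 5 times before Usp28 and 1 time before Trim44, on either strand and with overlaps counted. It was in 95 of 140 matched genes of the ubiquitin system (67.9%), beside 59.5% of 6589 matched named genes of the array and 32.7% of all 32851 promoters. CCAAT, or ATTGG on the other strand, was in 29.3% of the same 140 genes, 36.4% of the array's genes and 33.8% of all promoters, and of the called genes in Usp28. A match describes these letters only.

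Otulin was higher in Dil hearts than in either other group. On the arrays of Dil with WT its log2 ratio was 0.56, 1.10 and 1.48 in sets 1, 3 and 4. On those of Dil with Hyp it was 0.55, 0.38, 1.14 and 1.06 in sets 1 to 4, and on those of Hyp with WT -0.08, 0.02, 0.07 and 0.13. All 7 ratios with a Dil mouse were above all 4 ratios without one, and sets 3 and 4 were the highest. These 7 ratios come from 4 Dil mice, since arrays of a set share mice. The fitted change was 0.94 ± 0.13 in Dil against WT (SE, 1.92-fold, limma adjusted p = 0.00967) and 0.85 ± 0.13 in Dil against Hyp (1.80-fold, limma adjusted p = 0.0342). In Hyp against WT it was 0.10 ± 0.13, with a 95% interval of -0.18 to 0.38. Otulin had the largest fitted change of the 181 genes in both Dil comparisons, and 1 spot on the array.

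The size of the Otulin change was above 0 under all 16 other settings, from 0.71 to 1.10 in Dil against WT, and its call in that comparison stood in 12. It was lost without set 3 (limma adjusted p = 0.250), without set 4 (0.146), on direct arrays alone (0.463) and with the set as a replicate block (0.108). The call in Dil against Hyp was lost without set 1 (0.0698), set 3 (0.929) or set 4 (0.276), without the array of WT1 and Hyp1 (0.0588), on direct arrays alone (0.679) and with the block (0.367). The median of fibroblast markers was also highest in sets 3 and 4. For the 9 of 10 listed genes measured it was -0.10, 0.04, 0.54 and 0.45 in Dil against WT in sets 1 to 4. Otulin had 0.58, 0.40, 1.14 and 1.38. The markers were not of 1 direction. In Dil against WT 7 were above 0, with Fn1 at 0.82, Col3a1 at 0.62 and Tcf21 at 0.04. Lum had -0.05 and Pdgfra -0.20. Of these 9 markers 0 were called in any comparison by limma. At an unadjusted p under 0.05 there were 3 in Dil against WT and 3 in Dil against Hyp. The shares of all features were 16.2% and 9.64%. Otulin was also above 0 in sets 1 and 2, where the fibroblast median was near 0, and the part of fibroblasts in its change was not tested.

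**Figure D2:**
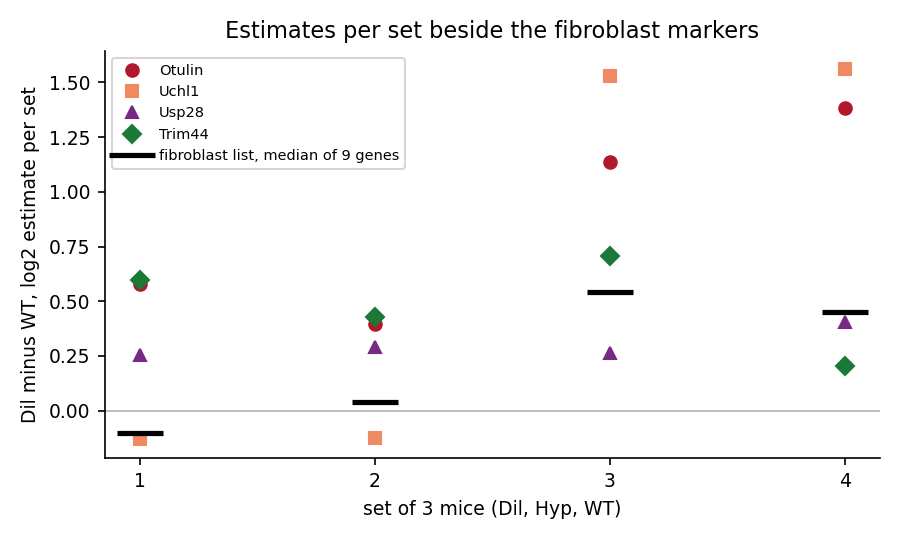
Estimates of the log2 change in Dil minus WT in each of the 4 sets of 3 mice, for Otulin, Uchl1, Usp28 and Trim44, with the median of 9 fibroblast markers as a black bar. Otulin and Uchl1 are highest in sets 3 and 4, as is the fibroblast median, while Usp28 lies between 0.25 and 0.40 in every set.

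Usp28, which opposes the F-box ligase of Myc and acts in the DNA damage response, had a smaller and more even change. Its log2 ratio was 0.13, 0.24 and 0.52 on the arrays of Dil with WT in sets 1, 3 and 4. It was 0.50, 0.33, 0.33 and 0.34 on those of Dil with Hyp, and -0.16, -0.04, -0.02 and -0.17 on those of Hyp with WT. Every array with 1 of the 4 Dil mice was above 0 and every array of Hyp with WT below it. The fitted change was 0.39 ± 0.05 in Dil against Hyp (1.31-fold, limma adjusted p = 0.0265) and 0.30 ± 0.06 in Dil against WT (1.24-fold, limma adjusted p = 0.0246). In Hyp against WT it was -0.08 ± 0.05, with a 95% interval of -0.20 to 0.03.

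The size of the Usp28 change held between 0.36 and 0.42 in Dil against Hyp and between 0.24 and 0.33 in Dil against WT over the 16 other settings, but its calls did not hold when data were taken away. In Dil against WT the limma adjusted p was 0.0811, 0.0799, 0.232 and 0.226 without sets 1 to 4, 0.103 with arrays scaled to 1 spread, 0.788 on direct arrays alone and 0.123 with the replicate block. In Dil against Hyp it was 0.0969, 0.0874, 0.548 and 0.224 without sets 1 to 4, 0.617 on direct arrays alone and 0.306 with the block. Usp28 also had 1 spot, so that no second clone bears on it. Of 4 listed markers of red blood cells 2 were measured, Alas2 of heme synthesis and Slc4a1, the band 3 anion exchanger. Their median was 0.50, 0.39, 0.30 and 0.31 in Dil against Hyp in sets 1 to 4, above 0 in each set as was Usp28, and -0.03, -0.35, -0.17 and -0.16 in Hyp against WT. In Dil against WT it was 0.47, 0.05, 0.13 and 0.15, beside set estimates of 0.25, 0.29, 0.26 and 0.40 for Usp28. There the markers were highest in set 1 and Usp28 in set 4. Alas2 had 0.59 ± 0.12 in Dil against Hyp (limma adjusted p = 0.0845) and Slc4a1 had 0.18 ± 0.06 (0.269), neither of them called. Both had an unadjusted limma p under 0.05 there (0.000366 and 0.00661), as did 9.64% of all features. The part of red blood cells in the Usp28 change was not tested.

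Trim44, which carries a zinc finger of the ubiquitin-specific protease type, was called in Dil against WT on a mean of 2 spots that differed. The mean log2 ratio was 0.62, 0.72 and 0.22 on the arrays of Dil with WT in sets 1, 3 and 4, and 0.61, 0.23, 0.13 and 0.35 on those of Hyp with WT in sets 1 to 4. On the arrays of Dil with Hyp it was 0.02, 0.19, 0.54 and -0.16. Both carrier groups were thus above WT on each direct array, and Dil and Hyp differed in sign between sets. The fitted change was 0.49 ± 0.10 in Dil against WT (1.41-fold, limma adjusted p = 0.0407) and 0.34 ± 0.10 in Hyp against WT (limma adjusted p = 0.900, not called). Its first spot gave 1.42, 1.00 and 0.70 on the arrays of Dil with WT, and its second spot -0.17, 0.44 and -0.27. Fitted alone, the spots gave 0.91 and 0.07 in Dil against WT and 0.71 and -0.03 in Hyp against WT. The range of 0.84 between them in Dil against WT was the largest of the 82 genes with 2 or more spots.

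The Trim44 call was also the one most often lost. The limma adjusted p was 0.140, 0.0911, 0.273 and 0.134 without sets 1 to 4, and 0.101 with arrays scaled to 1 spread. It was 0.0667 with the array of WT1 and Hyp1 as deposited, 0.0616 without it, 0.649 on direct arrays alone and 0.110 with the replicate block. The log2 change stayed between 0.40 and 0.60 throughout these settings.

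**Figure D3:**
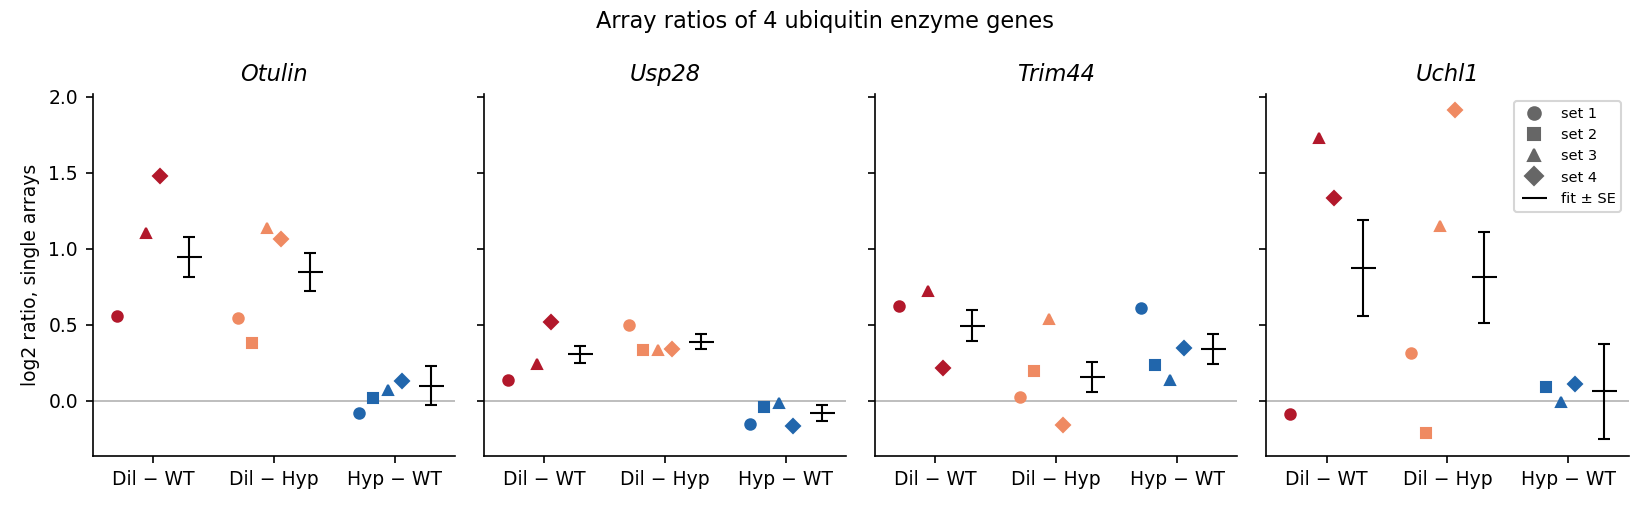
Log2 ratios of Otulin, Usp28, Trim44 and Uchl1 on each direct array of Dil with WT, Dil with Hyp and Hyp with WT, with the marker showing the set. The black bar is the fitted change with its SE. Ratios of Otulin and Usp28 with a Dil mouse are all above 0, and those of Uchl1 are high in sets 3 and 4 only.

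Uchl1, the ubiquitin hydrolase best known from neurons, had a change almost as large as that of Otulin and was not called. Its log2 ratio was -0.09, 1.73 and 1.33 on the arrays of Dil with WT in sets 1, 3 and 4. It was 0.32, -0.21, 1.15 and 1.91 on those of Dil with Hyp in sets 1 to 4, and 0.09, -0.01 and 0.11 on those of Hyp with WT in sets 2 to 4. The Dil mice of sets 3 and 4 were thus high against both partners, and those of sets 1 and 2 were not. The fitted change was 0.87 ± 0.32 in Dil against WT, with a 95% interval of 0.17 to 1.57 and a limma adjusted p of 0.201. It was 0.81 ± 0.30 in Dil against Hyp (limma adjusted p = 0.385) and 0.06 ± 0.32 in Hyp against WT. Its 2 spots gave 1.00 and 0.75 in Dil against WT, so that the split by set was seen with both. The fibroblast median in Dil against Hyp was 0.03, -0.20, 0.30 and 0.63 in sets 1 to 4, beside 0.36, -0.26, 1.34 and 1.68 for Uchl1, and the part of these cells was not tested.

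Otulin and Usp28 were the 2 genes of the Usp, Otu and Uch families that limma called. They are 4.35% of the 46 genes in each Dil comparison. Of all features, 2.15% were called in Dil against WT and 0.165% in Dil against Hyp. The median of the 46 was 0.05 in Dil against WT, with 28 above 0 (60.9%, beside 51.1% of all features). At an unadjusted p under 0.05, 8 were higher and 3 lower (23.9%, beside 16.2%), the called genes included. There were 5 in Dil against Hyp (10.9%, beside 9.64%) and 0 in Hyp against WT (0%, beside 4.41%). Otub2, an OTU-type protease, had 0.00, 0.53 and 0.75 on the arrays of Dil with WT and a fitted change of 0.38 ± 0.11 (limma adjusted p = 0.117). Usp39, a splicing factor whose protease domain is thought inactive, had -0.06, 0.13 and 0.69, and 0.23 ± 0.08 (0.206). Set 1 was at or below 0 for both, and set 4 the highest. Usp47, a protease known for its action on DNA polymerase beta, had 0.18 ± 0.06 in Dil against WT and 0.15 ± 0.05 in Dil against Hyp, but its 4 spots gave 0.34, 0.15, 0.35 and -0.11 in the first of these.

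On the lower side stood Usp2, a deubiquitinase under circadian control. It was -0.28, -0.61 and -0.03 on the arrays of Dil with WT and -0.13, -0.52, -0.40 and -0.30 on those of Hyp with WT, below 0 on all 7. These arrays share 4 WT mice. The fitted changes were -0.36 ± 0.13 (limma adjusted p = 0.211) in Dil against WT and -0.28 ± 0.13 in Hyp against WT. Usp19, known from muscle wasting, had 0.17, -0.64 and 0.93 on the arrays of Dil with WT, a spread that left the fitted change at 0.22 ± 0.22. Of the rest named by the rule, Otud1 had 0.34 ± 0.17, Otud5, an OTU protease of interferon signalling, -0.22 ± 0.10 and Usp46 -0.13 ± 0.08 in Hyp against WT. Usp21, a histone deubiquitinase, had -0.19 ± 0.09 in Dil against Hyp.

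Of the 23 E2 enzymes limma called 0 in any comparison, beside at most 2.15% of all features. At an unadjusted p under 0.05 there were 5 in Dil against WT (21.7%, beside 16.2% of all features). There were 3 in Dil against Hyp (13%, beside 9.64%) and 0 in Hyp against WT (beside 4.41%). Ube2e3 had the lowest fitted change of all 181 genes in Dil against WT, -0.38 ± 0.11 (limma adjusted p = 0.117). Its ratios were -0.28, -0.54 and -0.58 on the arrays of Dil with WT, all of 1 sign, as for 28.3% of all features. On those of Dil with Hyp they were 0.37, -0.53, -0.32 and -0.48, with set 1 alone above 0. Without set 1 the change in Dil against WT was -0.51 and was called (limma adjusted p = 0.0484).

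The highest E2 gene in both Dil comparisons was Ube2g2, an enzyme of ER-associated degradation, which was picked for its place after its values were seen. It had 0.09, 0.27 and 0.66 on the arrays of Dil with WT, with fitted changes of 0.36 ± 0.16 in Dil against WT (limma adjusted p = 0.314) and 0.25 ± 0.16 in Dil against Hyp. Ube2s, which extends chains for the anaphase-promoting complex, had 0.04, -0.28 and -0.26 on the arrays of Dil with WT and a fitted -0.21 ± 0.08. Ube2d3, a partner of many RING ligases, had 0.08, 0.17, 0.23 and 0.12 on the arrays of Dil with Hyp and a fitted 0.17 ± 0.06, with all 3 spots above 0 there. In Hyp against WT, Ube2l3, a partner of HECT and RBR ligases, had 0.12 ± 0.06. In the same comparison Ube2g1 had -0.15 ± 0.08 and Ube2t, the E2 of the Fanconi pathway, -0.15 ± 0.08. None of these 6 E2 genes passed the adjusted threshold.

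Of the 31 F-box genes limma called 0 in any comparison, beside at most 2.15% of all features. At an unadjusted p under 0.05 there were 6, 1 and 2 in Dil against WT, Dil against Hyp and Hyp against WT. These were 19.4%, 3.23% and 6.45%, beside 16.2%, 9.64% and 4.41% of all features. The lowest in Dil against WT was Fbxl5, the iron-sensing subunit that targets iron regulatory protein for degradation. Its ratios were -0.46, -0.39 and -0.61 on the arrays of Dil with WT, all of 1 sign, as for 28.3% of all features. On those of Dil with Hyp they were 0.26, -0.36, -0.18 and -0.36, with set 1 alone above 0, as for Ube2e3. The set 1 array of that pair correlated over all features at -0.236 with set 2, 0.181 with set 3 and 0.131 with set 4. The fitted change was -0.36 ± 0.10 in Dil against WT (limma adjusted p = 0.0868), and its 2 spots gave -0.23 and -0.49. Fbxw11, a beta-TrCP protein that recognises phosphorylated targets such as beta-catenin, had 0.20 ± 0.08 in Dil against WT and 0.17 ± 0.07 in Hyp against WT. Its array values in Dil with WT were -0.08, 0.01 and 0.60, each a mean of 2 spots that differed. In sets 1, 3 and 4 the first spot gave -0.31, -0.48 and 1.02, and the second 0.15, 0.50 and 0.17. Set 4 was thus the highest for the mean and the first spot, but not for the second. Fbxo3 had -0.20 ± 0.08 in both comparisons with WT, below 0 on all 7 direct arrays and on each of its 3 fitted spots. These arrays share 4 WT mice. Fbxo6, which binds glycoproteins, had -0.12 ± 0.07 in Dil against Hyp, and Fbxo28 had 0.14 ± 0.08 in Hyp against WT.

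Of the 27 Trim genes, Trim44 was the only one that limma called, in Dil against WT (3.7%, beside 2.15% of all features). At an unadjusted p under 0.05 the counts were 2, 2 and 1 in Dil against WT, Dil against Hyp and Hyp against WT. These were 7.41%, 7.41% and 3.7%, beside 16.2%, 9.64% and 4.41% of all features. Trim13, an ER-anchored ligase, had ratios of -0.12, -0.24 and -0.20 on the arrays of Dil with WT and -0.04, -0.08, -0.28 and -0.41 on those of Dil with Hyp, below 0 on all 7. These arrays share 4 Dil mice. The fitted changes were -0.18 ± 0.07 and -0.20 ± 0.06 (limma adjusted p = 0.202 and 0.291). Trim35 had 0.20 ± 0.07 in Dil against Hyp and -0.14 ± 0.07 in Hyp against WT, where the array of set 1 had no value for it. The muscle ligases Trim63, Trim54, Trim55, Trim72, Fbxo32, Fbxo40, Fbxl22, Rnf207 and Fbxo25 were not among the genes tested.

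Of the 48 Rnf genes limma called 0 in any comparison, beside at most 2.15% of all features. At an unadjusted p under 0.05 there were 5, 1 and 0 in Dil against WT, Dil against Hyp and Hyp against WT. These were 10.4%, 2.08% and 0%, beside 16.2%, 9.64% and 4.41% of all features. Rnf128, a ligase known from T cell anergy, had -0.08, -0.36 and -0.60 on the arrays of Dil with WT and a fitted -0.33 ± 0.11, and both spots were below 0. Rnf5, an ER membrane ligase of protein quality control, had -0.08, -0.21 and -0.50 and a fitted -0.27 ± 0.09. Both were lowest in set 4 and close to 0 in set 1. Rnf115 had 0.59, -0.11, 0.58 and 0.44 on the arrays of Dil with Hyp and a fitted 0.31 ± 0.11, with set 2 alone below 0. Rnf8, which marks DNA breaks, had -0.11 ± 0.06 in the same comparison. In Hyp against WT, Rnf2, the catalytic subunit of Polycomb repressive complex 1, had a spot mean above 0 on all 4 arrays (0.15, 0.13, 0.13 and 0.18). Its fitted change was 0.10 ± 0.05, and its 5 spots gave 0.25, 0.20, 0.03, 0.05 and -0.04. On the set 4 array they had 0.96, 0.20, -0.16, -0.08 and -0.03, so that 1 spot carried that mean. In the same comparison the next 2 genes were also above 0. Rnf41, a ligase of the ErbB receptors, had 0.11 ± 0.06 and Rnf185, an ER-associated ligase, 0.12 ± 0.07.

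Of the 6 cullins limma called 0 in any comparison, beside at most 2.15% of all features. Cul7, the scaffold of an Fbxw8 ligase, was the 1 with an unadjusted p under 0.05, in both Dil comparisons (16.7%, beside 16.2% and 9.64% of all features). It had 0.16, 0.32, 0.30 and 0.11 on the arrays of Dil with Hyp, all of 1 sign, as for 12.6% of all features. The fitted change there was 0.24 ± 0.10 (limma adjusted p = 0.419), with 0.21 and 0.28 from its 2 spots. On the arrays of Dil with WT Cul7 had 0.18, -0.06 and 0.68, with set 3 below 0. The fitted change in Dil against WT was 0.24 ± 0.10 (limma adjusted p = 0.270). Cul3, the scaffold that takes BTB-domain adaptors and is known to matter in heart and skeletal muscle, had -0.05, -0.22 and -0.51 on the arrays of Dil with WT and a fitted -0.17 ± 0.09. Cul1, the scaffold of the F-box ligases, had -0.05 ± 0.06 in Dil against WT, Cul2 -0.04 ± 0.06, Cul4a -0.04 ± 0.10 and Cul5 0.03 ± 0.10.

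Repeat spots limited what could be said of genes measured more than once. Of 82 genes with 2 or more spots, all spots had the same sign in 37 in Dil against WT, 40 in Dil against Hyp and 42 in Hyp against WT. The median range between the spots of a gene was 0.15, 0.10 and 0.10 on the log2 scale, of the same size as the changes of most genes. The other 99 genes, Otulin, Usp28 and Ube2e3 among them, had 1 spot and no such check. A further 18 spots carry a symbol of the family beside another symbol and were left out of the 181. One of them, which carries 2 Trim symbols that cannot be told apart, had a larger fitted change than Otulin in Dil against WT, 0.99 ± 0.25, and was not called (limma adjusted p = 0.0722). It had 0.70 ± 0.24 in Dil against Hyp (0.326).

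**Figure D4:**
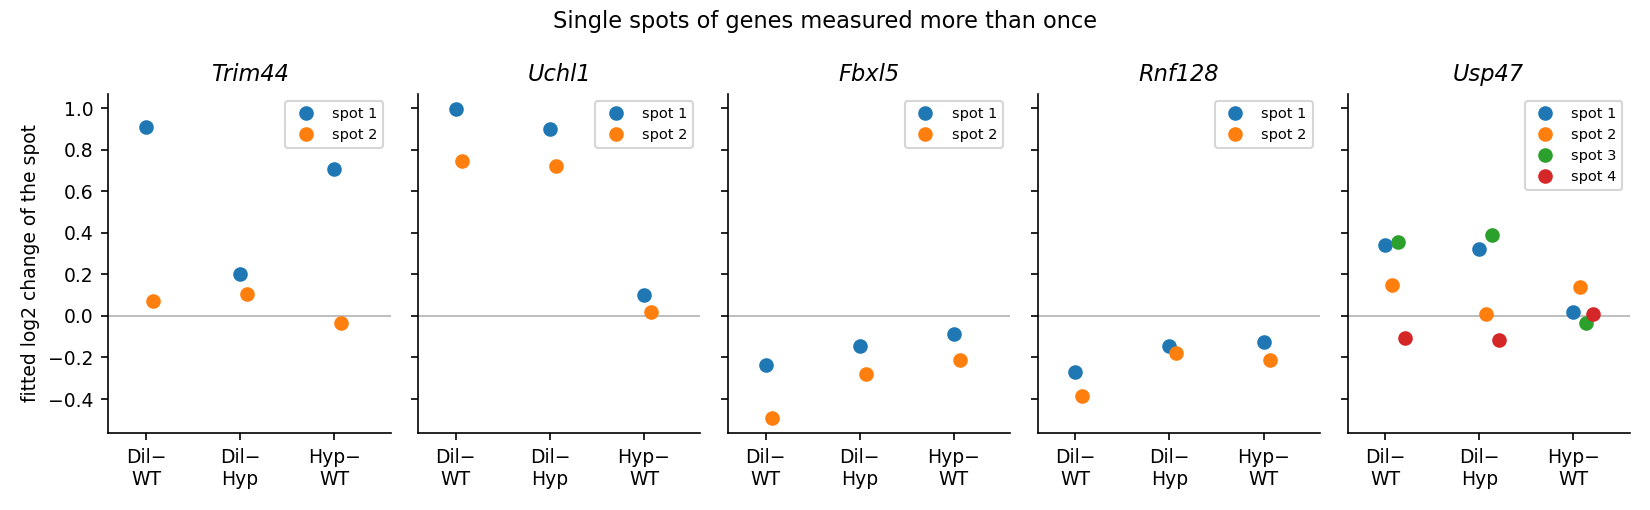
Fitted log2 changes of single spots for 5 genes with more than 1 spot, in Dil minus WT, Dil minus Hyp and Hyp minus WT. The spots of Uchl1, Fbxl5 and Rnf128 have the same sign in both Dil comparisons, while those of Trim44 and Usp47 lie far apart in Dil minus WT.

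Genes of the same pathway that the symbol rule does not take were counted from 7 lists, with 126 of 186 listed genes measured. In Dil against WT limma called 2 of 126 (1.59%, beside 2.15% of all features), both higher, and 18 (14.3%, beside 16.2%) had an unadjusted p under 0.05. Both belong to the 18 measured ubiquitin receptors and extraction factors: Sqstm1, the p62 adaptor that brings ubiquitinated cargo to autophagy, and Ubxn1, a cofactor of the segregase Vcp. Sqstm1 had 0.44, 0.45 and 1.22 on the arrays of Dil with WT and a fitted 0.58 ± 0.11 (limma adjusted p = 0.0254). Ubxn1 had 0.35, 0.37 and 0.72 and a fitted 0.38 ± 0.09 (limma adjusted p = 0.0486). Both were above 0 in each of these arrays and highest in set 4. The Sqstm1 call was lost without set 1 (0.0825), set 3 (0.250) or set 4 (0.153), on direct arrays alone (0.649) and with the replicate block (0.124). The Ubxn1 call was lost without sets 1 to 4 in turn (0.103, 0.0544, 0.356 and 0.354), with scaled arrays (0.130), on direct arrays alone (0.649) and with the block (0.256). In Dil against Hyp and in Hyp against WT limma called 0 of 126. At an unadjusted p under 0.05 there were 10 in Dil against Hyp (7.94%, beside 9.64% of all features) and 3 in Hyp against WT (2.38%, beside 4.41%). The 20 HECT and UBR ligases measured had the highest list median in Dil against WT, 0.12, with 13 above 0. Limma called 0 of them, and 3 had an unadjusted p under 0.05, beside 16.2% of all features. The list median changed sign between sets, at 0.01, 0.21, -0.10 and 0.10 in sets 1 to 4.

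The labelled tissue could be checked only in part, since 4 of 13 listed cardiomyocyte markers were measured (Actn2, Atp2a2, Ryr2 and Ttn) and ratios give no level. In Dil against WT, Atp2a2 had -0.47 ± 0.16, Ryr2 -0.33 ± 0.12, Actn2 0.46 ± 0.18 and Ttn 0.08 ± 0.07, with 0 called by limma and 3 at an unadjusted p under 0.05. Markers of endothelium, smooth muscle, macrophages, lymphocytes, adipocytes and red blood cells also gave 0 calls in any comparison, from 6, 2, 2, 1, 4 and 2 measured genes. At an unadjusted p under 0.05 in Dil against WT there were 1, 1, 0, 0, 0 and 1 of them, beside 16.2% of all features. In Dil against Hyp the counts were 0, 1, 0, 0, 1 and 2, beside 9.64%, and in Hyp against WT all were 0, beside 4.41%. Of 4 listed atrial markers 0 were measured.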

How the data were processed

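RNA of 12 mouse ventricles was labelled with Cy3 or Cy5 (25 µg per dye, per the labels' protocols) and compared on 11 arrays. The authors deposited 1 table of ratios per spot, here read as log2 values of Cy5 over Cy3; no source used here gives the scanner, background correction, normalization or log base. Array medians lay from -0.0135 to 0.0037. Spot brightness was not used here, so depth is unknown and the number of arrays limits precision.

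In the array of WT1 and Hyp1 the rows were displaced by 8 blocks (24 of 24 blocks correlated best there, r 0.504 to 0.745, against at most 0.219 elsewhere). It was realigned, which moved 11520 of 17664 spots and left 3840 (21.7%) without a value. Its correlation with the ratio that the 2 remaining set 1 arrays imply was 0.807, against 0.488 as deposited. Groups of positions were placed where they correlated better with this same ratio, so the rise is no independent check of the realignment.

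Spots with 1 platform symbol were averaged per gene. Generalised least squares with mice as random effects (variance ratio 0.303) and a dye term was passed to limma 3.58.1 in R 4.3.3, with Benjamini-Hochberg adjustment over 12097 features, a threshold of 0.05 and a value on at least 9 arrays. The fit joins direct ratios with those through the group not compared, so a fitted change can differ from the mean of the direct arrays. The code was tested on simulated data. Genes were named where called, among the 8 highest or 8 lowest by moderated t in a comparison, first in their family by p, or known from muscle. Genes and lists were chosen with earlier results of these data known. The other settings were no dye term, scaled or recentred arrays, the displaced array as deposited, left out or with its last 8 blocks placed too (chosen after seeing the data), a replicate block, mice not modelled, spot medians, values on 6 or 11 arrays, direct arrays alone, and each set left out.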

Additional observations from a re-analysis of the deposited data

Results flagged for a closer look

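The change of Otulin in Dil differed from that in Hyp by 0.8471 on the log2 scale, and that of Usp28 by 0.3883, each by the limma test of Dil against Hyp (adjusted p = 0.0342 and 0.0265, higher on 4 of 4 arrays), which is the difference between the changes of the 2 carrier groups against the same WT mice.

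In 3 of 50 named results with 4 set estimates, 1 set stood apart from the other 3, and chance flags about 1 in 20 groups. Fbxl5 had a set estimate of -0.6232 in Dil against WT (set 4), while the other sets lay between -0.28 and -0.22. Rnf115 had 0.04956 in Dil against Hyp (set 2), where the others were 0.43, 0.42 and 0.42. Ube2e3 had 0.1441 in Dil against Hyp (set 1), where the others were -0.41, -0.36 and -0.43.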

How the results depend on the processing

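The count of called genes in Dil against WT was 3, and 1 after scaling each array to 1 spread, 0 on direct arrays alone and 0 with the replicate block. Leaving out 1 set at a time gave 0 to 2 calls. In Dil against Hyp the count was 2, and 1 without the array of WT1 and Hyp1, 0 on direct arrays alone, 0 with the replicate block and 0 to 1 without 1 set. Over all features, 260 were called in Dil against WT, and 99 with scaled arrays, 6 with the replicate block, 0 on direct arrays alone and 0 to 121 without 1 set. The labels do not say that set numbers mark a litter or batch. Arrays of a set share mice, however, and the block takes 1 estimate per set and measures the spread between sets. Ratios of all features, without the dye term, agreed little between sets. Arrays of Dil with WT correlated at 0.276 (sets 1 and 3), 0.136 (sets 1 and 4) and -0.000615 (sets 3 and 4). The range was -0.236 to 0.207 for Dil with Hyp and -0.244 to 0.450 for Hyp with WT. Every call of the 181 genes was lost under the block. Under it the change was 0.87 for Otulin, 0.48 for Trim44 and 0.30 for Usp28 in Dil against WT, and 0.81 for Otulin and 0.39 for Usp28 in Dil against Hyp. Fewer arrays enter the fits that leave out a set or use direct arrays alone. The count in Hyp against WT was 0 under all settings. The median change of the 181 genes in Hyp against WT was -0.0116 with scaled arrays and 0.00945 without the array of WT1 and Hyp1, and lay between -0.00319 and 0.0092 without 1 set. Without 1 set it lay between 0.00614 and 0.0198 in Dil against WT and between -0.00414 and 0.0122 in Dil against Hyp. The causes of these moves were not tested. Usp19 in Dil against WT lay between -0.0184 (without set 4) and 0.404 (without set 3) without 1 set. Of the other values of single genes, 755 kept direction and side of the threshold, 32 lost a call and 1 gained it. Most of the 755 belong to results that were not called at first. Of 16 settings, Otulin kept its call in 12 in Dil against WT and 10 in Dil against Hyp. Usp28 kept it in 9 and 10, and Trim44 in 7 in Dil against WT.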
